A study of Rattus norvegicus with 12 samples.

Results

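The genes described here are 9 genes of the core circadian clock, Clock, Per1, Per2, Per3, Cry1, Cry2, Nr1d1, Nr1d2 and Dbp. They were taken by gene name from a table of raw read counts for 30560 genes, and each name matched exactly 1 row. The table holds 12 libraries of ribosomal-RNA-depleted total RNA from wild-type male Wistar Kyoto rats aged 9 weeks. Of these, 6 were made from whole tissue of the inner red gastrocnemius, a calf muscle, without treatment. The other 6 were made from mitochondria of the same 6 animals, isolated from fresh tissue with an immunoprecipitation kit, and RNase A and proteinase K were applied to them before extraction. The RNA input was 50 ng per muscle library and 10 ng per mitochondria library. Whole muscle had been snap frozen, and its RNA was extracted with another column kit, so the parts of handling, kit, input and depth in any difference between the groups cannot be told apart from that of the organelle. The sources used here do not give the hour of the day at which each animal was killed. The study asked which nuclear-encoded RNAs are found in skeletal muscle mitochondria, and for the clock genes this becomes a comparison of their level and their variation between the paired preparations.

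The circadian clock is a transcriptional feedback loop present in almost every cell, skeletal muscle fibres included. CLOCK pairs with BMAL1, encoded by Arntl, and the pair activates genes that carry E-boxes in their promoters, among them the Per and Cry genes, Nr1d1, Nr1d2 and Dbp. PER and CRY proteins return to the nucleus and repress the pair. NR1D1 and NR1D2, also called REV-ERB alpha and beta, repress Arntl and Clock through elements that are shared with ROR activators, and DBP drives genes with D-boxes. The mRNA levels of most members rise and fall over a day at different phases, and in muscle the clock is known for its control of glucose and lipid metabolism.

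All 9 genes are encoded in the nuclear genome. RefSeq promoter windows of the assembly GRCr8, which run from 250 bases before to 50 bases after a gene's start, were found for 8 of the 9 genes, 10 windows in all, with none for Cry1. The assembly is not the build of the counts. The windows shown belong to the members that varied most between animals in muscle, Nr1d1 and Per2, and to Nr1d2, the member that correlated best with Nr1d1 over the muscle libraries. Capitals mark matches on either strand to the E-box CACGTG, the related E-prime box CACGTT, the D-box TTATGTAA and AGGTCA, the core of the element shared by REV-ERB and ROR.
Per2 (chr9:99496944-99497243, minus strand): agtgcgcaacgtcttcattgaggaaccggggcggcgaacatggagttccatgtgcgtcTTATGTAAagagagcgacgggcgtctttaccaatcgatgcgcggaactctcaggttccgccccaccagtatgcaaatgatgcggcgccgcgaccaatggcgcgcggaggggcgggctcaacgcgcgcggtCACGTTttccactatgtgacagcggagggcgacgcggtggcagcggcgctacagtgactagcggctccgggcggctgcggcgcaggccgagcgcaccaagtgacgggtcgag
Nr1d1, upstream start (chr10:84231763-84232062, minus strand): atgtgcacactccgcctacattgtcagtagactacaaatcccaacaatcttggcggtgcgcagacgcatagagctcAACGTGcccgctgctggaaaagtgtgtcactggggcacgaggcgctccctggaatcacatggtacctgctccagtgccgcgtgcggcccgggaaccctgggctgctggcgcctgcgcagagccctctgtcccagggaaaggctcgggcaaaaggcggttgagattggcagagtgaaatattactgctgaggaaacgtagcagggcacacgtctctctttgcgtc
Nr1d1, downstream start (chr10:84229405-84229704, minus strand): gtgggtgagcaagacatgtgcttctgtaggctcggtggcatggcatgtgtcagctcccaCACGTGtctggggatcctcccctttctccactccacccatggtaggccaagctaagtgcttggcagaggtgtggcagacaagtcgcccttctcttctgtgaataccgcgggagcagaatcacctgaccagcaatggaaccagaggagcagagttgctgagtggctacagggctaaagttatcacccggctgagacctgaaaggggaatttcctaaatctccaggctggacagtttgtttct
Nr1d2 (chr15:9954784-9955083, plus strand): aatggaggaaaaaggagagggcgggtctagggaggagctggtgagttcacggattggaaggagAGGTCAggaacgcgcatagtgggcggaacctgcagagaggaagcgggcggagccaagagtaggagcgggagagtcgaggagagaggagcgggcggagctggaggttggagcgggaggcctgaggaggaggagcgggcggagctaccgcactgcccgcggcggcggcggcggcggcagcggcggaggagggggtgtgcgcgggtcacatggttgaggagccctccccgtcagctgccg
The Per2 window holds a D-box that begins 192 bases and an E-prime box that begins 62 bases before the start. Nr1d1 has an E-prime box 174 bases before its upstream start and an E-box 191 bases before its downstream start, and Nr1d2 has the AGGTCA core 187 bases before its start. The only further match among the members was an E-prime box in Cry2. Of all 33469 windows in the RefSeq table, 6.42% hold the E-box, 4.83% the E-prime box, 0.893% the D-box and 16.2% the AGGTCA core. A match is a stretch of letters and not a measured binding site.

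Depth differed widely between the groups. Gene counts totalled 24309444 to 32055355 per muscle library and 720111 to 1785865 per mitochondria library, so the 9 genes together had 5266 to 9155 counts per muscle library and 317 to 542 per mitochondria library. Genes of the mitochondrial genome took 26.4% to 35.9% of counts in muscle and 12.9% to 51.5% in mitochondria, with replicate 4 highest and replicate 3 lowest in mitochondria. Levels are therefore given as CPM, in which each count is scaled to the library's total over all genes, and, where the mitochondria libraries are described, also as nuclear CPM, for which mitochondrial genome counts are left out of the total. Of 8 muscle fibre markers 7 had a row, and their sum was 85849 to 116011 CPM in muscle and 407 to 718 CPM in mitochondria. Markers of other cells were present in both preparations: the 4 endothelial markers summed to 313 to 528 CPM in muscle and 221 to 388 CPM in mitochondria, and the 4 macrophage and leukocyte markers to 20.9 to 34.1 and 172 to 295 CPM. The 3 fibroblast markers summed to 749 to 3757 and 155 to 247 CPM, and the 3 adipocyte markers to 0.065 to 3.42 and 47.5 to 87.8 CPM. Sums of the 3 smooth muscle and 3 Schwann cell markers overlapped between the groups. In bulk RNA of muscle, fewer cells of a type and less RNA per cell cannot be told apart. The source of the marker reads in mitochondria libraries was not tested. Counts are not divided by transcript length, so levels are compared between groups or animals and not between genes.

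In whole muscle, Nr1d1 and Per2 varied most between the animals among the 9 genes. Nr1d1 (ENSRNOG00000009329), a heme-binding nuclear receptor that represses Arntl, had 105 CPM in replicate 1, 58.4 in replicate 6, 53.9 in replicate 5, 37.0 in replicate 2, 26.6 in replicate 3 and 18.1 in replicate 4. The highest muscle was thus 5.82-fold above the lowest, and the mean was 49.9 ± 31.2 CPM (SD, n = 6). Its coefficient of variation (CV, the SD as a share of the mean) was 62.6%, whereas counting error alone would give 2.67%, and 99.3% of the 12004 genes with a muscle mean of at least 1 CPM varied less. Nr1d1 is known to overlap Thra, a thyroid hormone receptor gene, on the opposite strand, and reads of the pair may not be fully separated, since no source used here says whether counting used the strand. Thra, looked at after these values were seen, ranged only from 50.8 to 65.1 CPM over the same libraries. Nr1d2 (ENSRNOG00000046912), the second REV-ERB, followed a smaller range, from 27.8 CPM in replicate 3 over a median of 34.1 to 47.2 in replicate 1, with a CV of 20.3%.

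The Per genes encode the repressors that accumulate and decay each day. Per2 (ENSRNOG00000020254) had 36.5 CPM in replicate 4, 22.3 in replicate 3, 19.5 in replicate 1, 19 in replicate 5, 14.2 in replicate 2 and 12.3 in replicate 6. Its mean was 20.6 ± 8.6 CPM (SD, n = 6), and its CV of 41.7% exceeded that of 97.2% of the genes. Replicate 4 was high for Per2 and low for Nr1d1. Per3 (ENSRNOG00000018413) was likewise highest in replicate 4, at 22.6 CPM, and lowest in replicate 2, at 11.6, around a median of 15.9. Per1 (ENSRNOG00000007387), which also responds quickly to hormones and to light in the brain clock, had a different order, with 7.29 CPM in replicate 5, a median of 13.5 and 15.7 CPM in replicate 6. The CVs of Per3 and Per1 were 24.3% and 24.7%.

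The remaining members were steadier. Clock (ENSRNOG00000002175), the activating subunit, had 34.3 CPM in replicate 4 and 44.5 to 51.4 CPM in the other 5 muscles (mean 46.0 ± 6.37, SD, n = 6), so that replicate 4 stood below the rest. The cryptochromes, which repress CLOCK and BMAL1 directly, ranged from 9.66 to 14.8 CPM for Cry1 (ENSRNOG00000006622) and from 26.6 to 35.8 CPM for Cry2 (ENSRNOG00000007478). Their CVs were 16.6% and 10.8%. Dbp (ENSRNOG00000021027), a PAR bZIP activator of output genes, lay between 10.2 and 13.5 CPM, and its CV of 11.5% was below the median of 14.1% over the 12004 genes. The ratio of the observed CV to the counting CV ran from 2.09 for Dbp to 23.5 for Nr1d1. It was above 1 for 98.0% of the 5845 genes with 10 to 100 CPM in muscle, with a median of 2.95 and an upper quartile of 4.21. Nr1d1, Per2 (10.1), Nr1d2 (6.37), Per3 (5.25), Clock (4.99) and Per1 (4.71) lay above that quartile, and Cry2 (3.18), Cry1 (3.11) and Dbp did not.

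**Figure D1:**
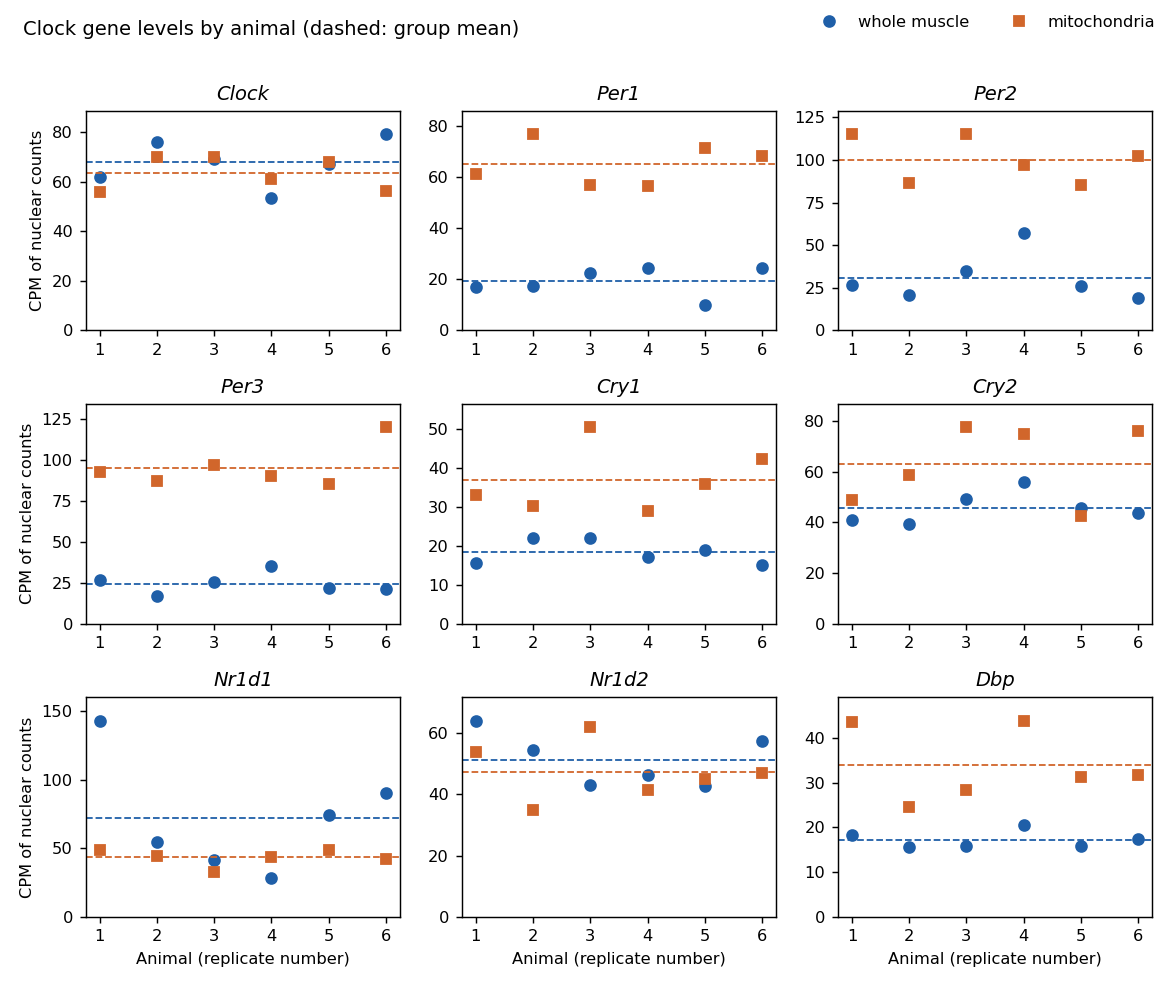
Level of each clock gene (CPM of nuclear counts, vertical axis from 0) in the 6 animals (horizontal axis, replicate number) for whole muscle (blue circles) and mitochondria (orange squares), with the group means as dashed lines. Muscle values of Nr1d1 run from 28.2 in replicate 4 to 143 in replicate 1, while the mitochondria values stay between 32.3 and 48.8.

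Replicate 1 or 4 was at an end of the range for some other clock genes as well. The genes named for this are examples and not a full count. For others neither was at an end, such as Hlf and Gsk3b, which were lowest in replicate 6 and highest in replicate 5 by CPM. Arntl, the partner of Clock, was lowest in replicate 4, at 18.3 CPM against 27.9 to 34.0 in the other 5 muscles. Npas2, a relative of Clock that can replace it, was also lowest there, at 4.57 CPM against 8.64 to 14.5. Wee1, a cell cycle kinase gene driven by E-boxes and, like Ucp3 below, chosen after its values were seen, was highest in replicate 4, at 9.30 CPM against 4.22 to 6.89. Replicate 1 had the highest level of Nr1d1, Nr1d2, Dbp, Bhlhe40, Bhlhe41 and Ucp3, an uncoupling protein gene, with 120 CPM of Ucp3 against 27.4 to 55.8 elsewhere. Over all 12004 genes, replicate 1 was the highest library for 31% and replicate 4 the lowest for 20.8% by CPM (25.2% and 31.1% with TMM scaling, edgeR's trimmed mean method), while replicate 4 was the highest for 12.1% by CPM and 7.38% with TMM. The summed muscle fibre markers were 116011 CPM in replicate 1, 114224 in replicate 5, 95090 in replicate 2 and 93735 in replicate 4. They were 88175 CPM in replicate 3 and 85849 in replicate 6, so replicate 4 was not at an end of this range. Replicate 6 stood apart for 2 other lists, with 3757 CPM of the 3 fibroblast markers against 749 to 1043 in the other muscles and 14.7 CPM of the 3 Schwann cell markers against 40.8 to 103. That library was the lowest for Per2 and Cry1 and the highest for Per1 by CPM. The part of tissue makeup in these differences was not tested.

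The correlations between members in muscle were computed for all 36 pairs, on log2 of TMM-scaled CPM with a pseudocount of 0.5, over 6 libraries. They ranged from -0.86 to 0.87, and none passed after Benjamini-Hochberg adjustment (two-sided exact permutation test, lowest adjusted p = 0.28), while 5 had an unadjusted p under 0.05. Those 5 pairs follow. Nr1d1 and Nr1d2 had r = 0.87 (exact p = 0.0361, Spearman's rho = 0.77, exact p = 0.103). Per2 and Per3 had r = 0.86 (exact p = 0.0319, rho = 0.77, exact p = 0.103), and Per2 and Cry2 had r = 0.82 (exact p = 0.0389, rho = 0.77, exact p = 0.103). Clock had r = -0.86 with Per2 (exact p = 0.0278, rho = -0.60, exact p = 0.242) and r = -0.83 with Per3 (exact p = 0.0222, rho = -0.94, exact p = 0.0167), while with Per1 it had r = -0.44 (exact p = 0.329). Without the 2 libraries farthest from the median of the first gene, r became 0.56, 0.75, 0.79, -0.50 and -0.68 in the same order. The value for Clock and Per2 rests largely on replicate 4, without which it was -0.59. Nr1d1 and Per2, the most variable members, had r = -0.62 (exact p = 0.179), which was -0.16 without replicate 4 and -0.84 without replicate 1.

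**Figure D2:**
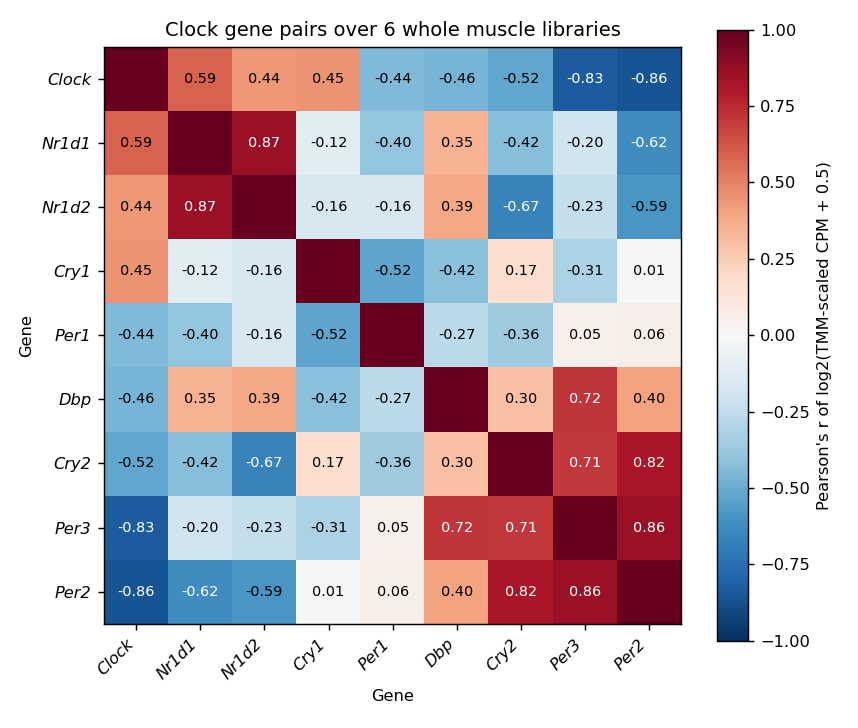
Pearson's r of log2(TMM-scaled CPM + 0.5) for each pair of clock genes over 6 whole muscle libraries (rows and columns are genes, colour and number give r). Clock is negative with Per2 and Per3, and Nr1d1 and Nr1d2 are positive with each other, although no pair passed after adjustment.

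Among 6474 named genes with a muscle mean of at least 10 CPM, those whose pattern over the 6 muscle libraries was most like a member's had r of at least 0.95. With only 6 libraries, 18 genes for Per2 and 168 for Clock had r above 0.9, so these names describe the libraries only. The genes most like Nr1d1 were Oat, Eif2b5 and Ndufs3, and those most like Nr1d2 were Tmcc3, Cep250 and Nck2. Clock was nearest to Rbbp6, Xrn1 and Vps8, and 13 genes lay nearer to Clock than Arntl did (r = 0.98). Per1 was nearest to Ndufa5, Lrrc39 and Mpzl1, Per2 to Med16, Mn1 and Nit1, and Per3 to Cherp, Spock2 and Ppard. Cry1 was nearest to Pgpep1, Prelid3b and Nfe2l1, and Cry2 to Mrpl38, Cox10 and Ppif. For Dbp they were Slc39a3, Gps2 and Bhlhe40, the last a clock repressor on the pathway lists below (r = 0.98).

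The mitochondria libraries contained reads of all 9 genes in every animal, from 19 counts (Cry1, replicate 1) to 102 counts (Per3, replicate 6). Detection was general there: of all 30560 genes, 27803 to 28708 had counts in each mitochondria library, against 16931 to 17776 in each muscle library. Levels of the clock genes are given as nuclear CPM with the lowest, the median and the highest of 6 libraries. Per2 had 85.4, 99.6 and 115 in mitochondria and 19, 26.3 and 56.9 in muscle. Per3 had 85.4, 91.2 and 119.8 in mitochondria and 17.1, 23.3 and 35.2 in muscle, and Per1 had 56.5, 64.6 and 76.7 in mitochondria and 10.02, 19.9 and 24.3 in muscle. The lowest mitochondria library of each Per gene thus stood above its highest muscle library. Cry1 ran from 28.8 over 34.4 to 50.4 in mitochondria and from 14.9 over 18.0 to 22.0 in muscle, and Dbp from 24.6 over 31.4 to 43.8 and from 15.5 over 16.7 to 20.4. Cry2 ran from 42.7 over 66.9 to 77.6 in mitochondria, with replicate 5 lowest, and from 39.4 over 44.7 to 55.8 in muscle. For Clock the mitochondria values of 55.8, 64.6 and 70.1 lay inside the muscle values of 53.5, 68.1 and 79.2. Nr1d2 likewise overlapped, with 35.1, 46.0 and 62.1 in mitochondria and 42.9, 50.5 and 64.2 in muscle.

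As group means of nuclear CPM, Per2 had 100.1 ± 13.2 in mitochondria and 30.7 ± 14 in muscle (SD, n = 6 each), Per3 95.3 ± 12.7 and 24.4 ± 6.28, and Per1 65.1 ± 8.29 and 19.2 ± 5.58. Cry1 had 36.8 ± 8.2 and 18.4 ± 3.09, and Dbp had 33.9 ± 8.0 and 17.2 ± 1.92, and these 5 did not overlap between the groups. Nr1d1 had 43.4 ± 6.0 in mitochondria and 72.0 ± 41.4 in muscle, Nr1d2 47.4 ± 9.51 and 51.4 ± 8.67, Clock 63.6 ± 6.64 and 67.8 ± 9.34, and Cry2 63.2 ± 15.3 and 45.8 ± 6.05, and these 4 overlapped. Of the 24679 genes tested, 81.7% had all mitochondria libraries above all muscle libraries on this scale and 7.34% the reverse, against 5 and 0 of the 9 clock genes. By CPM of all gene counts, Cry1 overlapped and 4 of 9 were above and none below, where 79.5% of all tested genes were above and 6.77% below. The shares on both scales are not matched for muscle level. Of the tested genes, 12676 had 0 to 1 CPM in muscle, with a median log2 fold change of 9.01 by total counts. The range of 10 to 100 CPM, which holds all 9 clock genes, had a median of 0.41.

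The range between animals, highest over lowest in nuclear CPM, was narrower in mitochondria than in muscle for 5 of the 9 genes and wider for 4, a description for which no test was run. Nr1d1 ran from 32.3 nuclear CPM in replicate 3 over a median of 44.2 to 48.8 in replicate 1, a 1.51-fold range, against 28.2 to 143 in muscle, a 5.07-fold range. Per2 ran from 85.4 to 115, a 1.35-fold range, against 19 to 56.9, a 2.99-fold range. Per1 had a 1.36-fold range in mitochondria and a 2.43-fold range in muscle, Per3 1.40 and 2.06, and Clock 1.26 and 1.48. The ranges were wider in mitochondria for Cry1 (1.75-fold and 1.48-fold), Cry2 (1.82 and 1.42), Nr1d2 (1.77 and 1.5) and Dbp (1.78 and 1.32). Over all genes with at least 1 nuclear CPM, the median CV was 24.4% in mitochondria and 15.3% in muscle. Counting error alone would give Nr1d1 a CV of 16.9% at this depth, and the observed CV was 13.8%. The ratio of observed to counting CV lay between 0.747 for Clock and 1.72 for Cry2 in mitochondria, and between 2.02 for Dbp and 21.3 for Nr1d1 in muscle. The medians of that ratio over all genes with at least 1 nuclear CPM were 1.06 and 2.51. The counting CV in mitochondria was larger than the CV observed in muscle for Clock (14% and 13.8%), Cry1 (18.4% and 16.8%), Cry2 (14% and 13.2%) and Dbp (19.2% and 11.1%). By CPM of all gene counts the mitochondria CVs were wider, 21.5% to 40.2%, and 7 of the 9 genes were lowest in replicate 4, the library with the highest share of mitochondrial genome counts.

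**Figure D3:**
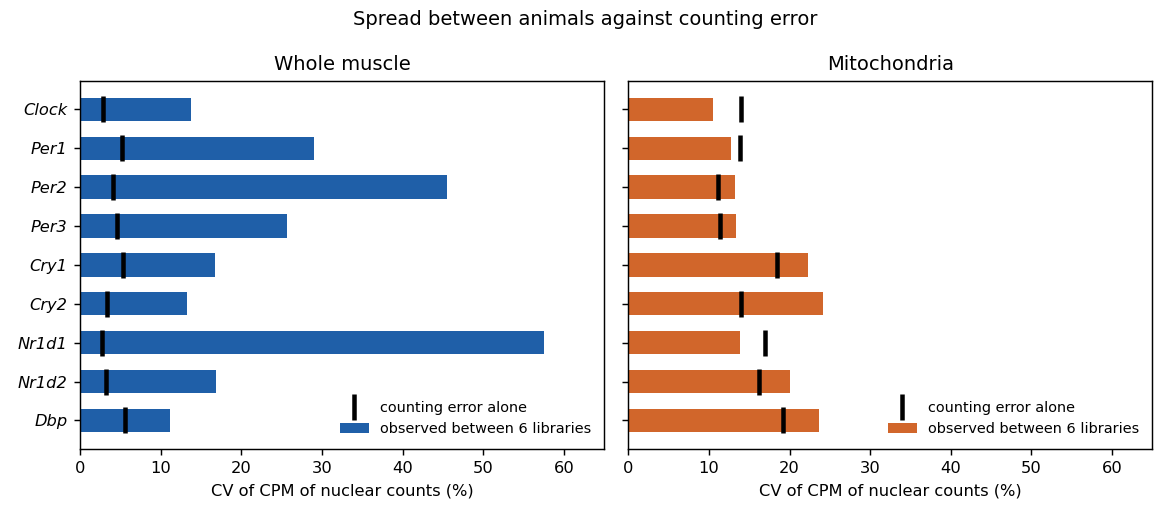
CV of CPM of nuclear counts between 6 libraries (bars, per cent) and the CV that counting error alone would give (black marks) for each clock gene in whole muscle (left) and mitochondria (right). The muscle bars pass the marks for every gene, with 57.5% against 2.7% for Nr1d1, while the mitochondria bars reach from 0.747 times the mark for Clock to 1.72 times for Cry2.

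Whether an animal's muscle level carried over to its mitochondria was asked for each gene over the 6 pairs, on the same log2 scale. Of 9 correlations, none passed after adjustment and 1 had an unadjusted p under 0.05 (two-sided exact permutation test). Dbp had r = 0.87 (exact p = 0.0278, adjusted p = 0.25, rho = 0.83, exact p = 0.0583), and r = 0.85 without replicates 1 and 3, the farthest from the muscle median. In nuclear CPM it had r = 0.90 and passed (exact permutation adjusted p = 0.025, rho = 0.94, adjusted p = 0.15), with 24.6 to 43.8 in mitochondria and highest in replicate 4 in both preparations, and r = 0.67 without replicates 1 and 4. By CPM of all gene counts Dbp had r = 0.54 and did not pass (exact permutation p = 0.251, adjusted p = 0.812), with r = -0.63 without replicates 1 and 4. Nr1d1, for which muscle gave the widest range, had r = 0.52 (exact p = 0.303) and the others lay between -0.53 for Per1 and 0.27 for Clock.

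The proportions among the 9 genes, which need no scaling between libraries, are given as a description with no test. As a share of the counts of the 9 genes, Nr1d1 made up 20.1% ± 9.36 in muscle and 7.97% ± 1.43 in mitochondria, and Clock 19.7% ± 3.54 and 11.6% ± 1.63 (SD, n = 6 each). Nr1d2 had 14.8% ± 1.58 in muscle and 8.61% ± 1.37 in mitochondria. The Per genes had larger shares in mitochondria: 18.2% ± 1.65 against 8.97% ± 4.30 for Per2, 17.3% ± 1.54 against 7.07% ± 1.85 for Per3 and 12.0% ± 2.06 against 5.57% ± 1.67 for Per1. The ranges of Clock, Nr1d2, Per1 and Per3 were separate between the groups, while those of Nr1d1 and Per2 overlapped through muscle replicate 4. There the log2 ratio of Per2 to Nr1d1 counts, a pair singled out after these values were seen, was 1.01, inside the mitochondria range of 0.82 to 1.83 and above the median of -1.44 over muscle. Shares of Cry2, 13.4% ± 2.43 and 11.5% ± 2.38, Cry1, 5.41% ± 1.35 and 6.67% ± 1.16, and Dbp, 4.99% ± 0.546 and 6.19% ± 1.49, overlapped. Shares within other sets of genes were not computed, and these shares are not matched for muscle level. Over all tested genes, the fold change was lower the higher the level in muscle. Nr1d1 and Clock had muscle means of 49.9 and 46.0 CPM, and the Per genes had 12.9 to 20.6. Cry1 and Dbp, whose shares overlapped, had 12.5 and 11.7 CPM. The part of muscle level in these shares was not tested.

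Fitted over all 24679 tested genes, 8 of the 9 clock genes fell in mitochondria under TMM scaling and none rose (edgeR's quasi-likelihood test, Benjamini-Hochberg adjusted p below 0.05), but 5 of these, Per1, Per2, Cry1, Cry2 and Dbp, were higher when total counts were the only scaling. TMM sets library sizes by a trimmed mean of the ratios over genes, whereas the CPM levels above are relative to total counts. A log2 fold change of 0 with TMM lay below the median of all tested genes, which was 2.51. Under TMM 93.3% of all tested genes were called, 30.3% lower and 63.0% higher. With total counts, 6 clock genes were higher and 1 was lower, against 84.3% and 9.03% of all tested genes. The change of scaling moves the median log2 fold change of all genes from 2.51 to 4.61, and under both scalings all 9 clock genes lay below that median. These medians, and the shares over all tested genes, are not matched for muscle level. Tested genes with 10 to 100 CPM in muscle, the range that holds all 9 clock genes, had a median of -1.69 with TMM and 0.41 with total counts. Nr1d1 fell by 2.92 ± 0.29 on the log2 scale with TMM (SE, edgeR adjusted p = 7.55e-11) and fell by 0.83 ± 0.24 with total counts (edgeR adjusted p = 0.000818). It was the only member to pass as lower under both. With nuclear counts as library size 6 clock genes were higher and 1 lower, against 85.6% and 9.29% of all tested genes, and with mitochondrial genome counts 5 and 0, against 80.9% and 4.34%. RLE factors (DESeq2's size factors in edgeR) and DESeq2 itself each gave 0 higher and 6 lower, where 66.5% and 66.4% of all tested genes were higher and 26.6% and 26.4% lower. After thinning all libraries to the lowest total, 3 of the 8 clock genes still tested were higher and 4 lower, against 55.5% and 29.9%. An animal term left 8 lower, against 30.1% lower and 62.9% higher. Relative to mitochondrial genome counts, Nr1d1 had -0.62 and did not pass (edgeR adjusted p = 0.246). Nr1d2 fell by 2.30 ± 0.14 and Clock fell by 2.25 ± 0.12 with TMM (edgeR adjusted p = 1.73e-15 and 8.17e-17), but with total counts they had -0.17 and -0.13 and did not pass (edgeR adjusted p = 0.380 and 0.474).

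The cryptochromes and Dbp changed direction with the scaling. Cry2 had -1.68 ± 0.13 with TMM and 0.42 ± 0.18 with total counts, Cry1 -1.17 ± 0.16 and 0.95 ± 0.21, and Dbp -1.20 ± 0.14 and 0.89 ± 0.21 (log2 fold change ± SE), and each value passed in its own fit (largest edgeR adjusted p = 0.0232, for Cry2 with total counts). The Per genes lay highest among the members under each scaling. With total counts Per3 had 1.92 ± 0.18, Per1 1.74 ± 0.19 and Per2 1.69 ± 0.20 (largest edgeR adjusted p = 1.26e-12), but with TMM they had -0.18, -0.36 and -0.44 (edgeR adjusted p = 0.195, 0.0227 and 0.0210). Neither call with TMM held in every fit that left out 1 of the 12 libraries. Per1 did not pass without muscle replicate 1, 2, 3, 4 or 6 (edgeR adjusted p = 0.105 to 0.226), and Per2 did not pass without muscle replicate 1, 3, 4 or 5 (edgeR adjusted p = 0.0766 to 0.458). Fits without a muscle library tested 20003 to 20007 genes, whose median log2 fold change was 1.18 to 1.21, against 24679 genes and 2.51 with all libraries. Reliance on single animals therefore cannot be told apart from this shift over all genes. The median over the 9 genes was -1.20 with TMM and 0.89 with total counts.

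**Figure D4:**
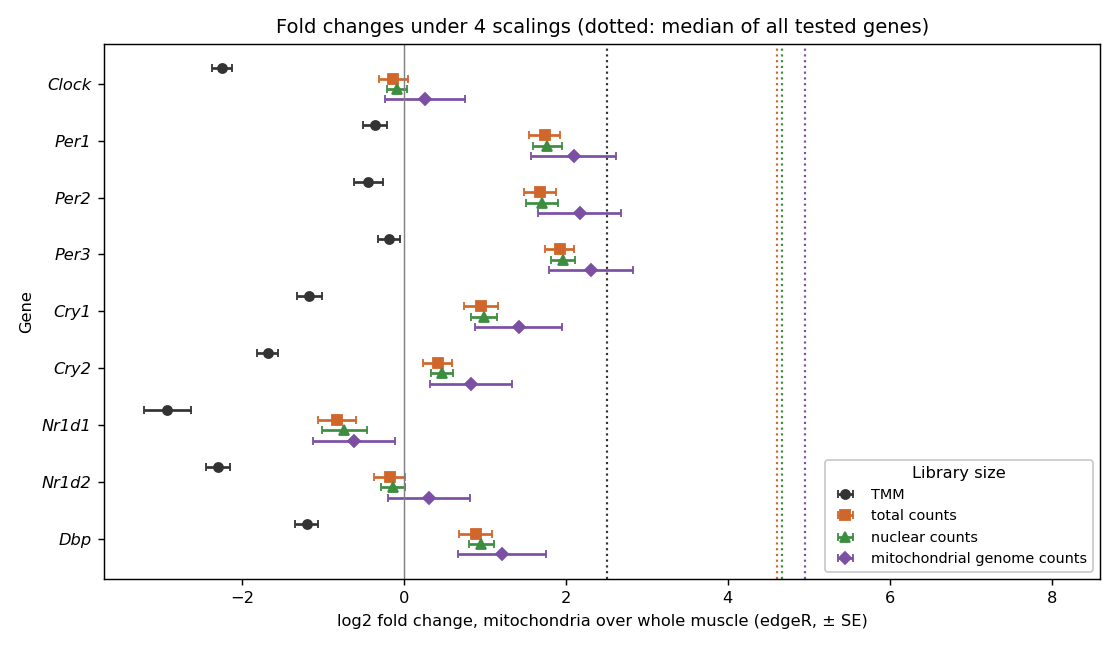
Log2 fold change of each clock gene, mitochondria over whole muscle (horizontal axis, symbols with SE bars from edgeR), with 4 choices of library size, and the median of all tested genes under each choice as a dotted line. Every clock gene lies left of the dotted line of its own scaling, and the order from Nr1d1, lowest, to Per3, highest, is the same at both ends in each. The dotted lines are not matched for muscle level.

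Among all tested genes the fold change was lower the higher the gene's level in muscle, and the clock genes were read beside that. All 9 had a muscle mean between 10 and 100 CPM, as did 5845 tested genes, whose median log2 fold change with TMM was -1.69 with quartiles of -2.51 and -0.97. Nr1d1 lay below the lower quartile, the Per genes lay above the upper one, and Clock, Nr1d2, Cry1, Cry2 and Dbp lay between them. Level was not matched within this range. The Per genes had 12.9 to 20.6 CPM in muscle and Nr1d1 had 49.9, while Cry1 and Dbp had 12.5 and 11.7. The neighbouring ranges had medians of 0.44 for 1 to 10 CPM and -4.48 for 100 to 1000 CPM. Genes with 0 to 1 CPM in muscle had a median of 7.06 and those over 1000 CPM one of -7.37. These are descriptions of position and not tests.

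**Figure D5:**
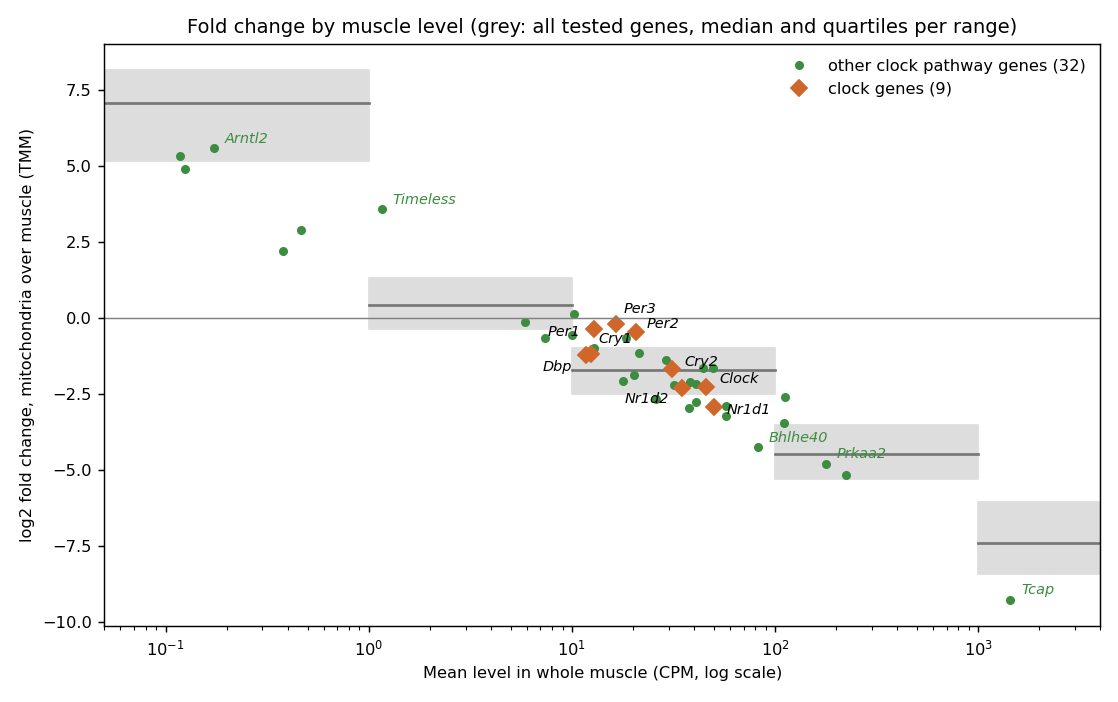
Log2 fold change with TMM (vertical axis) against mean CPM in whole muscle (horizontal log axis) for the 9 clock genes (orange) and 32 other clock pathway genes (green), over the quartiles (grey bands) and medians (grey lines) of all tested genes in 5 ranges of muscle level. The clock genes lie between 11.7 and 49.9 CPM and from -2.92 to -0.18, in and around the band of that range.

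The other genes of the clock pathway were read from 6 lists of 34 symbols, of which 32 had a row and were tested. With TMM 24 were lower, 6 were higher and 2 did not pass, with a median of -1.76, against 30.3% lower and 63.0% higher of all tested genes and their median of 2.51. With total counts 11 were lower and 16 higher, with a median of 0.36, against 9.03% and 84.3% and a median of 4.61. The shares over all tested genes, here and for the single lists below, are not matched for muscle level. Of the tested genes, 12676 had 0 to 1 CPM in muscle. The TMM median was 0.44 for genes with 1 to 10 CPM, -1.69 for 10 to 100 CPM and -4.48 for 100 to 1000 CPM. Of the partners of Clock, Arntl had 29.1 CPM in muscle and 50.0 in mitochondria, and its log2 fold change of -1.37 with TMM became 0.75 with total counts (edgeR adjusted p = 2.50e-10 and 9.78e-05). Npas2 had 10.3 and 50.9 CPM and did not pass with TMM, at 0.13 (edgeR adjusted p = 0.50), but was higher with total counts, at 2.26. Arntl2, a relative of Arntl with at most 0.37 CPM in any muscle library, rose to 38.8 ± 9.51 CPM in mitochondria, by 5.59 with TMM and 7.70 with total counts. The TMM value lay below the median of 7.06 for tested genes with 0 to 1 CPM in muscle.

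Of the REV-ERB loop, the activator Rorb, with a mean of 0.118 CPM in muscle, rose under both scalings, by 5.35 with TMM and 7.42 with total counts, and had 21.4 CPM in mitochondria. Its TMM value also lay below the median of 7.06 for tested genes with 0 to 1 CPM in muscle. Rora had 31.9 and 30.8 CPM, which was lower with TMM, at -2.18, and did not pass with total counts, at -0.08. The co-repressor Ncor1 fell under both, with log2 fold changes of -2.59 and -0.49, but did not pass relative to mitochondrial genome counts, at -0.20 (edgeR adjusted p = 0.699), while its partner Hdac3 had -0.96 with TMM and 1.15 with total counts. Of the 3 PAR bZIP genes and antagonists, 3 were lower with TMM (30.3% of all tested genes) and 2 with RLE factors or DESeq2 (26.6% and 26.4%). Among them Nfil3, which competes with DBP for D-boxes, fell under both scalings, at -2.94 and -0.83, but did not pass relative to mitochondrial genome counts, at -0.38 (edgeR adjusted p = 0.492). Tef did not pass with total counts, at -0.05, and Hlf had -0.55 and 1.55.

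Of the further repressors, Bhlhe40 fell from 82.5 ± 20.4 to 19.3 ± 5.53 CPM, with log2 fold changes of -4.24 with TMM and -2.15 with total counts. Bhlhe41 had 17.8 and 18.8 CPM, was lower with TMM at -2.08, and did not pass with total counts, at 0.03. Ciart and Timeless, with 0.124 and 1.16 CPM in muscle, rose under both, by 4.91 and 3.57 with TMM. Ciart lay below the lower quartile of 5.17 for tested genes with 0 to 1 CPM in muscle. Timeless lay above the upper quartile of 1.33 for those with 1 to 10 CPM, but its muscle level was at the low end of that range. It lay below the lower quartile of 5.17 for 0 to 1 CPM. Of 9 kinases and ubiquitin ligases that act on PER and CRY, 8 were lower and 1 was higher with TMM (30.3% and 63.0% of all tested genes), and 2 and 5 with total counts (9.03% and 84.3%). Prkaa2, a catalytic subunit of AMPK, had the lowest fold change of the 9 and fell from 177 to 28.5 CPM, and the casein kinase Csnk1d had 49.4 and 70.8 CPM, with log2 values of -1.63 and 0.50. Fbxw11 had 44.3 and 63.6 CPM, with -1.64 and 0.49, and Fbxl21, a ligase of cryptochromes with 0.465 CPM in muscle, rose under both, by 2.90 with TMM. This rise of Fbxl21 lay below the lower quartile of 5.17 for tested genes with 0 to 1 CPM in muscle. Of 8 clock outputs, 7 were lower with TMM and none higher (30.3% and 63.0% of all tested genes), and 6 and 2 with total counts (9.03% and 84.3%). Tcap, a titin-binding sarcomere protein, fell from 1436 ± 290 to 10.3 ± 5.62 CPM, with log2 fold changes of -9.25 and -7.19, Pdk4, which inhibits pyruvate dehydrogenase, from 223 to 26.5 CPM and Nampt, of NAD synthesis, from 111 to 45.1 CPM. Nampt did not pass relative to mitochondrial genome counts, at -0.94 (edgeR adjusted p = 0.0706). Wee1, the output that did not pass with TMM, at -0.13 (edgeR adjusted p = 0.511), had 5.88 CPM in muscle and 23.7 in mitochondria and was higher with total counts, at 1.96.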

How the data were processed

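RNA sequencing of 6 whole muscle and 6 mitochondria libraries from the same animals was analysed from a table of raw read counts per gene that the authors deposited, without normalization. Per the submitters' processing notes, the rat build was mRatBN7.2 and the tools included STAR 2.7.11a, HTSeq, cutadapt 4.6 and FastQC 0.74. The sources used here do not say whether counting used the strand. Every one of the 12 count columns was assigned to a sample by its name.

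Genes were tested with edgeR 4.0.16 (R 4.3.3): TMM normalization, filterByExpr with a minimum count of 10, a quasi-likelihood fit on group alone, and p-values adjusted after Benjamini and Hochberg over all 24679 genes tested, with a threshold of 0.05. The procedure was first tested on simulated data. CPM values divide counts by the library total or by its nuclear counts. Counting CV is the spread that Poisson counting alone would give, and the depth of the mitochondria libraries sets it. Correlations used exact permutation over all pairings of 6 libraries (SciPy 1.17.1), where the smallest possible p for rho is 0.0027778 and that for r can be smaller. No 2 libraries of a group agreed within sampling noise (lowest chi-square per gene 1.54 in mitochondria and 32.0 in muscle). The labels number the animals, so that muscle and mitochondria libraries are pairs. Deviations of the paired libraries from their group means had correlations of -0.0075 to 0.0214 over genes. By that measure 1 of the 6 muscle libraries was closest to the mitochondria library of its own animal, so the pairing rests on the labels.

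The members, pathway lists and marker lists were chosen with earlier results of these data known. Named genes were the 9 members, every gene of a pathway list of at most 5 tested genes, and otherwise the 3 genes of highest muscle CPM with the largest called rise and fall. One gene that this rule names is not reported here. For likeness of pattern, the 3 genes of highest r with each member were named. Alternatives were other library sizes, RLE factors, DESeq2 1.42.0, no filter on low counts, thinning all libraries to 720111 counts, an animal term, and leaving out each library. Promoter sequences are those of RefSeq on GRCr8, and no coordinates were carried between builds.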

Additional observations from a re-analysis of the deposited data

How the results depend on the processing

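The direction of most clock gene differences depended on the library size used. Under mitochondrial genome counts the log2 fold changes were 0.26 for Clock, 2.10 for Per1, 2.17 for Per2, 2.30 for Per3, 1.42 for Cry1, 0.83 for Cry2, 0.31 for Nr1d2 and 1.21 for Dbp. Under nuclear counts they were 1.77 for Per1, 1.70 for Per2, 1.96 for Per3, 0.99 for Cry1, 0.47 for Cry2 and 0.96 for Dbp. Under total counts they were 1.74 for Per1, 1.69 for Per2, 1.92 for Per3, 0.95 for Cry1, 0.42 for Cry2 and 0.89 for Dbp, and after thinning 0.90 for Per1, 0.65 for Per2 and 0.94 for Per3. With RLE factors Per1 had 0.0036 and Per3 0.18, with DESeq2 Per1 had 0.0013 and Per3 0.18, and Per3 ranged from -0.28 to 0.020 over the fits that left out 1 library, with 0.020 without muscle replicate 4. Clock genes higher and lower numbered 5 and 0 with mitochondrial genome counts, 6 and 1 with nuclear or total counts, and 3 and 4 of 8 tested after thinning. Pathway genes higher and lower numbered 14 and 4, 16 and 11, and 16 and 11 with those 3 library sizes. Of all genes, 1069, 2291 and 2228 were lower with them, while thinning left 12287 genes to test, 6820 of them higher and 3668 lower. RLE factors and DESeq2 each gave 0 higher and 6 lower clock genes, without Per1 and Per2. With nuclear counts, 1 clock gene, Dbp, passed for the correlation between muscle and mitochondria by r (rho adjusted p = 0.15, exact permutation), and with total counts 0 did (Dbp r = 0.54, adjusted p = 0.812). Leaving out 1 library gave 11478 to 16363 genes higher and 6925 to 7514 lower. Fewer genes were tested in the thinned table and in the fits without a muscle library. The cause of the changes under any of these alternatives was not tested.

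With the animal as a replicate block, 0 clock genes were higher and 8 lower, 6 pathway genes were higher and 24 lower, and 15511 of all genes were higher and 7427 lower. The block changed no clock gene call, and Nr1d1 had -2.73. Mitochondria libraries with 19 to 102 counts per clock gene limit what can be seen between animals.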
